A study of Mus musculus with 12 samples.

Results

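The genes described here encode the initiation and elongation factors of cytosolic protein synthesis, together with a few genes that share their naming roots. They were chosen by symbol: every protein-coding mouse gene of the count table whose symbol begins with Eif followed by a digit from 1 to 6, or with Eef1 or Eef2, leaving out the eIF2 kinases (Eif2ak) and the eIF4E-binding proteins (Eif4ebp). The rule found 62 of 27179 genes, and 58 of the 62 passed the filter on low counts. RNA-seq had been made from mouse cells of T-cell acute lymphoblastic leukemia, T-ALL, that descend from 1 primary leukemia, ALL101, which arose in a Vav-tTA;TRE-GFP-shIkaros animal and was grown in recipient mice. The Vav promoter drives the tetracycline transactivator in blood cells, and the transactivator drives a GFP-linked hairpin against Ikaros (Ikzf1), so both groups carry the same transgenes. In 3 untreated mice the hairpin stayed on and the spleen cells taken are labelled GFPhigh; in 3 mice given doxycycline (Dox) for 3 days, which switches the hairpin off and lets endogenous Ikaros return, the sorted cells are labelled GFPmid. Treatment and sort gate therefore changed together and cannot be told apart, and no leukemia without the hairpin is among the samples. All 12 libraries (2 sequencing runs of each RNA, summed here) share 1 batch date in the labels. For untreated mouse 3 the library is named with INJ where the others name a sort, and whether its cells were sorted alike cannot be told from the labels.

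Protein synthesis begins when eIF2, loaded with GTP and initiator tRNA, joins the small ribosomal subunit together with eIF1, eIF1A, eIF3 and eIF5. The eIF4 factors bind the mRNA cap, unwind the leader and bring the mRNA to that subunit, and eIF5B then joins the large subunit. During elongation eEF1A delivers aminoacyl-tRNA, the eEF1B subunits recharge it with GTP, eEF2 moves the ribosome along, and eIF5A relieves stalling. Many of these genes are known targets of the transcription factor Myc, which binds the E-box CACGTG, and Myc is a common driver of T-ALL.

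Because many members moved together, the 300-base windows around their RefSeq start sites (250 bases before to 50 after, GRCm38.p6, the build called mm10) were searched for CACGTG, a palindrome that reads alike on both strands. The motif was in 7.15% of all 32851 promoter windows. A window was present for 48 of the 62 members (77.4%), below the 80% set for a comparison with other genes, so such a comparison is void. The motif was in 13 of the 48, in 8.09% of all genes with a window and in 11.7% of the tested genes with one. These values are description only, and no enrichment of the motif in the set can be read from them. The stretches around it are shown for 4 members that fell (Eif4g1, Eif4a1, Eif5a and Eef2k) and, for contrast, for Eif3f and Eef2, which did not pass the test. Each is written 5′ to 3′ on the gene's strand, with the motif in capitals.
Eif4g1: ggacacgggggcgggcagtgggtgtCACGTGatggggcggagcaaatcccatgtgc
Eif4a1: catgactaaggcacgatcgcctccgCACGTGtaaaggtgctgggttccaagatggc
Eif5a: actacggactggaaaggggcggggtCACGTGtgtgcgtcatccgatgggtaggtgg
Eef2k: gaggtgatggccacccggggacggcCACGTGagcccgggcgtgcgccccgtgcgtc
Eif3f: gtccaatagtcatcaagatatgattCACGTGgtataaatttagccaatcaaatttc
Eef2: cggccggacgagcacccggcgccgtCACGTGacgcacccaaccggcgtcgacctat

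The Eif4g1 stretch lies at chr16:20672648-20672703 (plus strand) and the Eef2k stretch at chr7:120842775-120842830 (plus strand), with the motif beginning 54 and 31 bases before the start. Those of Eif4a1 and Eif5a are on the minus strand, at chr11:69672582-69672637 and chr11:69921430-69921485, 189 and 74 bases before a start. The Eif3f stretch is at chr7:108934322-108934377 and that of Eef2 at chr10:81176563-81176618 (both plus strand), 68 and 43 bases before the start. None of these stretches overlaps an exon of the GENCODE annotation, and those of Eif5a and Eef2k lie within the span of their RefSeq gene, downstream of its outermost start. The motif was thus present beside genes that fell and beside genes that did not pass the test. Of the latter, Eef2 stood close to the threshold (edgeR adjusted p = 0.0506). Over all members with a window, the motif was in 9 of 30 that fell (30.0%) and 4 of 18 not called or not tested (22.2%). Over all tested genes with a window, it was in 15.4% of those that fell and 10.1% of those not called. None of these shares was tested against another, and too few members had a window to compare them with other genes.

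The hairpin's target and Myc were read first. Ikzf1 was at 153, 149.7 and 159 CPM in the untreated mice and 1438, 1523 and 1495 CPM in the doxycycline mice (mice 1, 2 and 3 of each group in order, here and below), where CPM is a gene's count relative to the TMM-scaled library size. Its log2 fold change was 3.27 ± 0.07 (SE; edgeR adjusted p = 1.2e-07). Myc was at 363, 340.2 and 392 CPM in the untreated mice and 113, 151 and 172 CPM in the doxycycline mice and fell by 1.33 ± 0.15 on the log2 scale (edgeR adjusted p = 0.000439). All 3 doxycycline mice were far above the untreated mice for Ikzf1 and below them for Myc.

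Across the set, transcripts of the translation machinery were lower after doxycycline. Of 58 members tested, 38 fell and 1 rose (Eif4e3), at an edgeR adjusted p under 0.05, and 19 did not pass. Of all 13134 genes tested, 25.2% were lower and 24.8% higher, 50.0% in either direction. The members' median log2 fold change was -0.36, beside -0.004 over all genes, and 52 of the 58 had a negative sign. In 47 members every doxycycline mouse lay below every untreated mouse, and in 3 every one lay above (30.9% and 30.2% of all genes, 61.2% in either direction). The changes were small: 1 member, Eef1aknmt, both passed the test and was lower by 2-fold or more, against 5.87% of all genes (14.1% in either direction). Summed over the 62 members, the level was 28919, 28345 and 27239 CPM in the untreated mice and 22287, 22104 and 23693 CPM in the doxycycline mice, which is 80.6% of the untreated mean. The set took 2.86%, 2.85% and 2.74% of all counts in the untreated mice and 2.24%, 2.22% and 2.35% in the doxycycline mice. In bulk RNA, fewer cells of a type and less RNA per cell cannot be told apart, CPM measures a share of the RNA and not its amount, and the p-values measure the spread between mice that carry 1 leukemia. Leaving out untreated mouse 3 and doxycycline mouse 2 together gave 36 members that fell and 2 that rose; leaving out doxycycline mouse 2 or 3 alone gave 34 or 39 that fell and 2 that rose, the second being Eif4a2 (Eif4g3 in the fit without both mice).

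The members are abundant genes, and abundant genes were lower slightly more often. Among genes with a mean of at least 100 CPM, 32.5% of 2648 fell, against 29 of 42 members (69.0%). At 10 CPM or more the values were 28.9% of 8871 genes and 38 of 56 members (67.9%). These are floors on the level and do not match the members to genes of the same level.

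The mice of a group did not rank evenly for these genes. Of the 38 members that fell, untreated mouse 1 was the highest untreated mouse in 31 and untreated mouse 3 in 0; over all 3316 genes that fell, those mice were highest in 50.9% and 19.6%. Doxycycline mouse 3 was the highest treated mouse in 27 of the 38 and doxycycline mouse 2 in 2, against 57.1% and 22.3% of all genes that fell. The same doxycycline mouse 3 had the most Myc among the treated mice, and untreated mouse 3, with INJ in its library name, had the most Myc among the untreated mice. The part of Myc in the members' levels was not tested.

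T-cell markers were present in both groups. The summed level of 8 such genes was 4702 to 4740 CPM in untreated and 5306 to 5523 CPM in doxycycline mice. Among these Cd2, Cd5, Cd247 and Thy1 rose, Cd3g fell (-0.45 ± 0.07, edgeR adjusted p = 0.000945), and Cd3d, Cd3e and Lck did not pass. B-cell markers summed to 0.302 to 0.663 and 0.506 to 0.821 CPM, with Pax5 at 0 in all mice, and NK markers to 0.366 to 0.503 and 0.176 to 0.276 CPM. Myeloid markers (7 genes) summed to 22.5 to 40.8 CPM in untreated and 63.0 to 83.7 CPM in doxycycline mice, erythroid markers (7) to 5.84 to 45.3 and 64.0 to 80.5, and stromal markers (4, nearly all of it Pecam1) to 121 to 151 and 208 to 219. In the myeloid list Itgam, Csf1r and Adgre1 rose, Mpo, S100a8 and S100a9 fell, and Lyz2 did not pass. Their part in the lower factor levels was not tested.

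**Figure D1:**
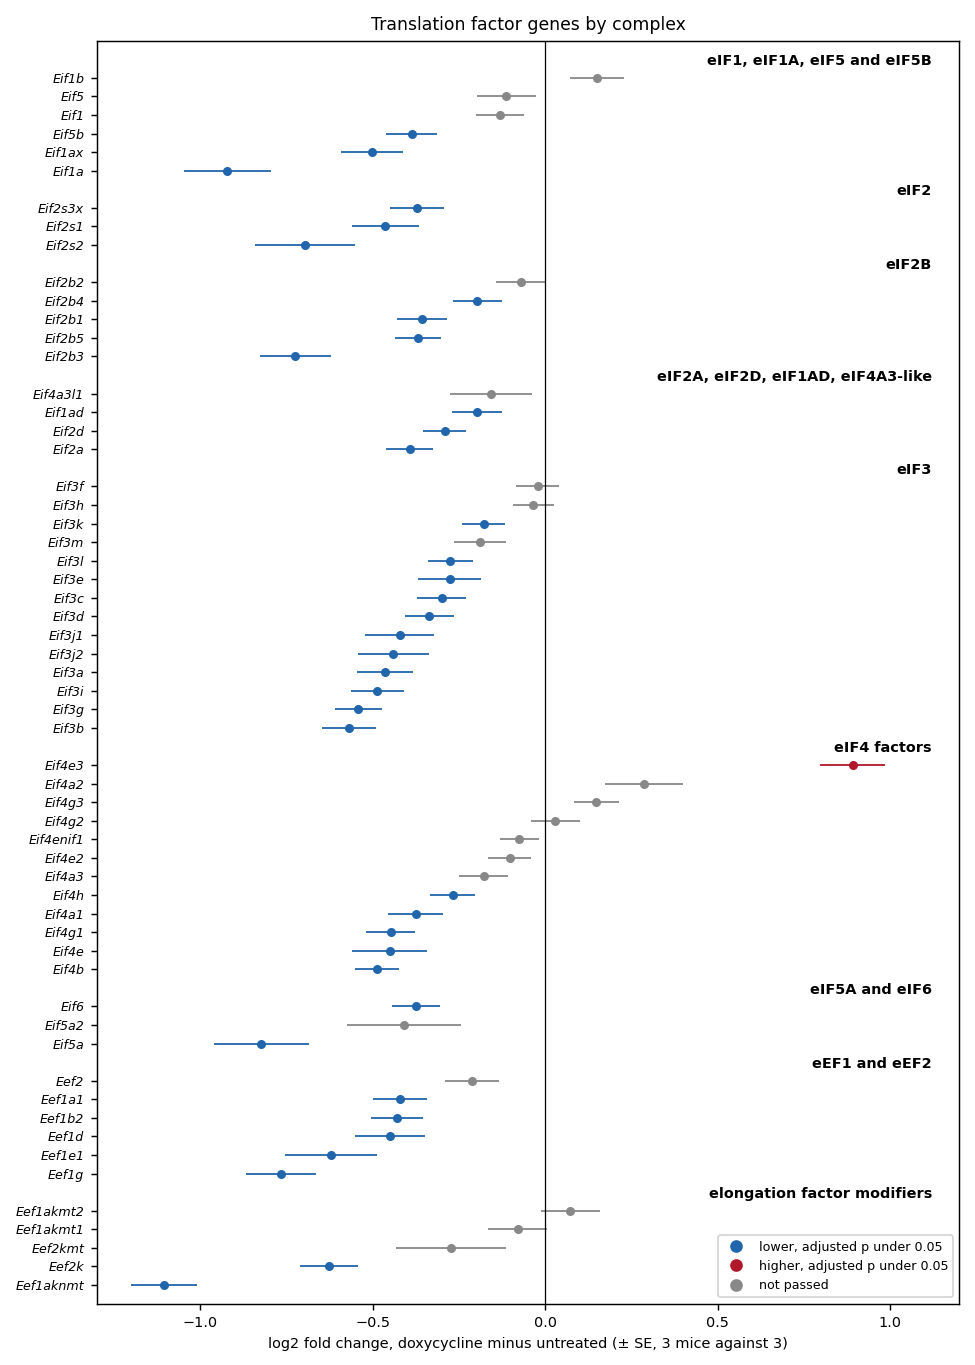
Log2 fold change (doxycycline minus untreated, x axis) of each of the 58 tested members, grouped by factor complex, with bars of 1 SE from edgeR; colour shows the call. Most points lie left of 0, Eef1aknmt is the lowest at -1.11, and Eif4e3 is the one called member on the right, at 0.89.

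Of the elongation factors, the eEF1 complex fell in every measured subunit. Eef1a1, the tRNA carrier eEF1A1 (Entrez gene 13627, chr9:78478453-78481724, GRCm38), was at 4793, 4584 and 4171 CPM in the untreated mice and 3355, 3201 and 3564 CPM in the doxycycline mice and fell by 0.42 ± 0.08 on the log2 scale (edgeR adjusted p = 0.00268). Per kilobase of gene length it had the highest level of any member, 2523 ± 177 in untreated and 1885 ± 102 CPM per kilobase in doxycycline mice (SD, n = 3 mice each). It also has processed pseudogenes, so its reads can be shared with near-identical copies. The tissue-restricted paralog Eef1a2, typical of muscle and neurons, had 0 reads in all 6 mice, which allows up to 0.0666 to 0.101 CPM per mouse (3 counts).

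Eef1g, the gamma subunit of the exchange factor eEF1B, had the smallest p of this group. It was at 246, 235 and 222 CPM in the untreated mice and 135, 119.8 and 158 CPM in the doxycycline mice and fell by 0.77 ± 0.10 (edgeR adjusted p = 0.000598), with no overlap between the groups. The alpha subunit gene Eef1b2 and the delta subunit gene Eef1d, the other parts of the exchange factor, fell by 0.43 ± 0.07 and 0.45 ± 0.10. Eef1e1, a scaffold of the multi-synthetase complex that docks to eEF1, fell by 0.62 ± 0.13. Thus 5 of 6 tested genes fell (83.3%, beside 25.2% of all genes), by 0.42 to 0.77 log2 units.

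Eef2, the translocase, stood closest to the threshold. It was at 4170.0, 4604 and 4529 CPM in the untreated mice and 3531, 3873 and 4081 CPM in the doxycycline mice, with every treated mouse below every untreated one, and a log2 difference of -0.21 ± 0.08 (unadjusted 95% interval -0.39 to -0.03; edgeR adjusted p = 0.0506). It passed under 6 of 18 alternative settings, among them DESeq2 (adjusted p = 0.0264), limma-voom (0.0434) and the fits without untreated mouse 1 (0.0485) or doxycycline mouse 3 (0.0373). The level per kilobase was 1430.5 ± 74.9 in untreated and 1235 ± 89.5 in doxycycline mice. Per length, Eef1a1 stood above Eef2 in both groups, by more than the spread over mice.

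Among the genes that modify elongation factors, 2 of 5 tested fell (40%, beside 25.2% of all genes). Eef1aknmt, a methyltransferase of eEF1A (Entrez gene 71449, chr1:162533671-162548541), showed the deepest drop of all members: it was at 64.4, 61.9 and 56.7 CPM in the untreated mice and 25.2, 28.6 and 31.2 CPM in the doxycycline mice and fell by 1.11 ± 0.10 (edgeR adjusted p = 0.00011). Eef2k, the kinase that phosphorylates and restrains eEF2, was at 120.1, 136 and 131 CPM in the untreated mice and 79.4, 79.5 and 92.0 CPM in the doxycycline mice and fell by 0.63 ± 0.08 (edgeR adjusted p = 0.000628). The treated mice lay below the untreated mice in 3 of the 5 tested genes, these 2 among them, beside 30.9% of all genes tested.

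The other modifier genes, which encode methyltransferases, did not pass. Eef1akmt1, the one with the highest level per kilobase in this group (30.7 ± 0.998 untreated, 29.0 ± 1.88 with doxycycline), was at 24.7, 26.2 and 26.1 CPM in the untreated mice and 22.5, 24.8 and 25.5 CPM in the doxycycline mice, and the groups overlapped. Its log2 difference was -0.08 ± 0.09 (edgeR adjusted p = 0.461). The values were 0.07 ± 0.09 for Eef1akmt2 and -0.27 ± 0.16 for Eef2kmt, a methyltransferase of eEF2. Eef1akmt3 had 1 read over the 6 mice and was not tested.

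The small start-site factors divided between lower genes and genes that did not pass. Of 6, Eif1a, Eif1ax and Eif5b fell (50%, beside 25.2% of all genes), and Eif1, Eif1b and Eif5 did not pass. Eif1a, which encodes a form of eIF1A that keeps the scanning subunit open (Entrez gene 13664, chr18:46597704-46610225), was at 177, 146 and 127 CPM in the untreated mice and 85.2, 71.5 and 80.8 CPM in the doxycycline mice and fell by 0.92 ± 0.13 (edgeR adjusted p = 0.000838). Its X-linked paralog Eif1ax, the highest of the group per kilobase (202 ± 16.1 untreated, 143 ± 13.2 with doxycycline), was at 201, 189 and 172 CPM in the untreated mice and 136, 118 and 142 CPM in the doxycycline mice and fell by 0.50 ± 0.09 (edgeR adjusted p = 0.00221). These paralogs are alike in sequence, so reads may be split between them.

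Eif5b, the subunit-joining GTPase, fell by 0.39 ± 0.07 (edgeR adjusted p = 0.00295). Eif1, whose protein guards start-codon choice, was at 157, 147 and 157 CPM in the untreated mice and 144, 129.7 and 147 CPM in the doxycycline mice, without overlap but with a log2 difference of -0.13 ± 0.07, short of the threshold. Its paralog Eif1b was at 107, 107 and 118 CPM in the untreated mice and 118, 133 and 116 CPM in the doxycycline mice (0.15 ± 0.08), with overlapping groups. Eif5, the GTPase-activating protein of eIF2, had a log2 difference of -0.11 ± 0.09 (95% interval -0.31 to 0.08).

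All 3 tested subunits of eIF2, which carries the initiator tRNA, fell (beside 25.2% of all genes). The alpha subunit gene Eif2s1 had both the smallest p and the highest level per kilobase (68.9 ± 7.86 untreated, 49.9 ± 4.02 with doxycycline). It was at 244, 213 and 195 CPM in the untreated mice and 164, 143 and 165 CPM in the doxycycline mice and fell by 0.46 ± 0.10 (edgeR adjusted p = 0.00469). The largest difference of the 3 was in Eif2s2, the beta subunit, at 143, 123 and 107 CPM in the untreated mice and 82.1, 62.9 and 85.5 CPM in the doxycycline mice (-0.70 ± 0.14, edgeR adjusted p = 0.00569). In all 3 genes the treated mice lay below the untreated mice, beside 30.9% of all genes tested.

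The gamma subunit gene on the X chromosome, Eif2s3x, was at 96.7, 89.0 and 88.9 CPM in the untreated mice and 74.6, 64.6 and 72.9 CPM in the doxycycline mice and fell by 0.37 ± 0.08 (edgeR adjusted p = 0.00491). Its Y-linked counterpart Eif2s3y had 1 read in all 6 mice together and was not tested. Summed CPM of the eIF2 genes in the treated mice was 70.4% of the untreated level.

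Of the 5 subunits of eIF2B, the exchange factor that recharges eIF2 with GTP, 4 fell (80%, beside 25.2% of all genes). Eif2b3, the gamma subunit, was at 56.8, 55.8 and 50.8 CPM in the untreated mice and 33.4, 28.6 and 36.9 CPM in the doxycycline mice and fell by 0.72 ± 0.10 (edgeR adjusted p = 0.000824). Eif2b5, the catalytic epsilon subunit and the highest per kilobase in untreated mice (66.2 ± 2.70, against 51.3 ± 2.50 with doxycycline), was at 173, 173 and 161 CPM in the untreated mice and 127, 127 and 138 CPM in the doxycycline mice and fell by 0.37 ± 0.07 (edgeR adjusted p = 0.00233). Gamma and epsilon form the catalytic pair of the complex.

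The regulatory subunits alpha, beta and delta, which sense phosphorylated eIF2, gave 2 lower genes and 1 that did not pass. Eif2b1 (alpha) fell by 0.36 ± 0.07, and Eif2b4 (delta) by 0.20 ± 0.07 at an edgeR adjusted p of 0.0468. That last call was lost when any 1 mouse was left out, with edgeR adjusted p-values of 0.0596 to 0.146. Eif2b2 (beta) was at 86.3 ± 1.95 CPM on average in untreated mice and 82.2 ± 5.70 CPM with doxycycline (SD, n = 3 each; -0.07 ± 0.07), with overlapping groups.

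**Figure D2:**
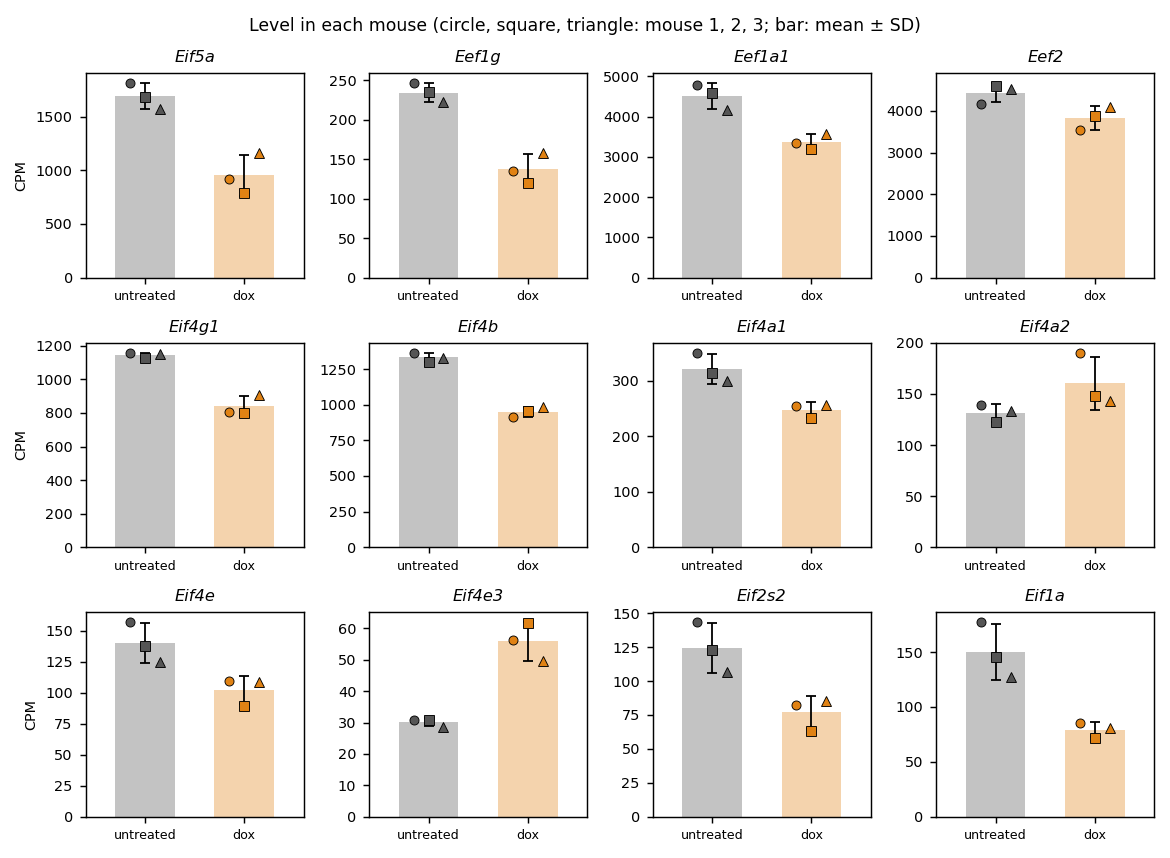
CPM (y axes, from 0) of 12 members in each mouse, with symbols for mice 1 to 3, bars at the group mean and error bars of 1 SD (n = 3). In the Eif4e3 and Eif4a2 panels the doxycycline mice lie above the untreated mice, and in the other 10 panels they lie below.

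In eIF3, the large scaffold that binds the small subunit and recruits eIF4G, 11 of 14 genes fell (78.6%, beside 25.2% of all genes). Eif3g, an RNA-binding subunit and the one with the smallest p, was at 236, 225 and 218 CPM in the untreated mice and 149, 151 and 165 CPM in the doxycycline mice and fell by 0.54 ± 0.07 (edgeR adjusted p = 0.000467). Eif3b, the central scaffold subunit (Entrez gene 27979, chr5:140419305-140443358), was at 712, 682 and 671 CPM in the untreated mice and 439, 439.7 and 514 CPM in the doxycycline mice and fell by 0.57 ± 0.08 (edgeR adjusted p = 0.000726). The treated mice lay below the untreated mice in 12 of the 14 genes, beside 30.9% of all genes tested, with Eif3f and Eif3h as the exceptions.

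Eif3h and Eif3f showed almost no difference. Eif3h, the highest eIF3 gene per kilobase (365 ± 9.29 untreated, 357 ± 7.75 with doxycycline), was at 461, 446 and 438 CPM in the untreated mice and 432, 433 and 449 CPM in the doxycycline mice, a log2 difference of -0.03 ± 0.06 with a 95% interval of -0.17 to 0.10. Eif3f was at 385, 405 and 382 CPM in the untreated mice and 371, 389 and 395 CPM in the doxycycline mice (-0.02 ± 0.06, 95% interval -0.16 to 0.12). Both intervals overlap that of Eif3c (-0.46 to -0.14), the least lowered of subunits a, b, c, g and i, and no difference between subunits was tested. Eif3h and Eif3f encode the MPN-domain subunits, which with eIF3m form a module at the edge of the complex.

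The 14 genes were put into groups of subunits after their values had been seen. Subunits a, b, c, g and i all fell (5 of 5, -0.57 to -0.30), and f, h and m did not pass (0 of 3, -0.19 to -0.02). Eif3m, at 110.0 ± 6.93 CPM on average in untreated mice and 96.4 ± 5.36 CPM with doxycycline, had an edgeR adjusted p of 0.0632, and of 0.0346 without untreated mouse 3. Subunits d, e, k and l fell in 4 of 4 (-0.34 to -0.18). The summed level per kilobase of a, b, c, g and i over that of f, h and m was 1.58, 1.55 and 1.54 in the untreated mice and 1.15, 1.11 and 1.21 in the doxycycline mice. No test was made of this ratio, since the grouping was chosen after the values were seen.

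Calls at the small end of eIF3 depended on single mice. The edgeR adjusted p of Eif3e was 0.0335 with all mice, and 0.115, 0.0949, 0.0782 and 0.0839 without untreated mouse 1, untreated mouse 2, doxycycline mouse 2 and doxycycline mouse 3. That of Eif3k was 0.0408 with all mice, and 0.0711 to 0.124 without any 1 of untreated mice 1, 2 and 3 or doxycycline mice 1 and 2. The remaining subunit genes were called with any mouse left out, apart from Eif3f and Eif3h, which were never called, and Eif3m.

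The loosely bound subunit eIF3j is encoded by a pair of near-identical genes, between which reads can be split. Eif3j1 was at 26.8, 23.9 and 23.1 CPM in the untreated mice and 19.9, 17.0 and 18.2 CPM in the doxycycline mice and Eif3j2 at 85.4, 70.9 and 68.6 CPM in the untreated mice and 60.5, 51.8 and 53.5 CPM in the doxycycline mice. They fell by 0.42 ± 0.10 and 0.44 ± 0.10 (edgeR adjusted p = 0.00851 and 0.00767). Per kilobase they were the lowest eIF3 genes, Eif3j1 at 10.4 ± 0.822 and Eif3j2 at 31.0 ± 3.78 in the untreated mice.

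**Figure D3:**
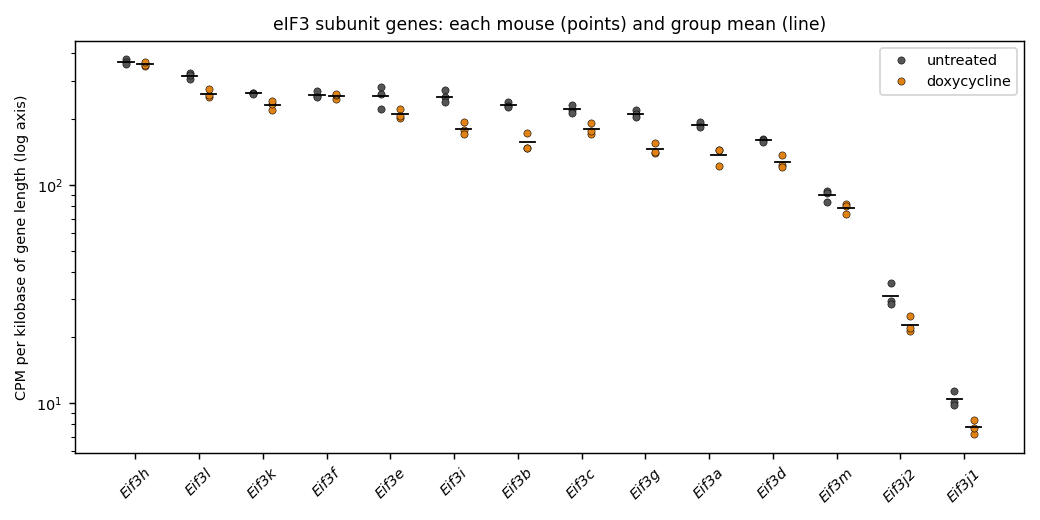
Level of each eIF3 subunit gene in CPM per kilobase of gene length (log axis), with 1 point per mouse and a line at the group mean, ordered by level in the untreated mice. The groups overlap for Eif3h and Eif3f and are separate for the other 12 genes, with Eif3j2 and Eif3j1 far below the rest.

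The eIF4 factors, which prepare the mRNA, were divided. Of 12 tested, 5 fell (41.7%, beside 25.2% of all genes), 1 rose (8.33%, beside 24.8%) and 6 did not pass. The genes that fell were Eif4g1, Eif4a1, Eif4e, Eif4b and Eif4h. Eif4g1, the main scaffold (Entrez gene 208643, chr16:20672720-20692883), was at 1157, 1128 and 1151 CPM in the untreated mice and 808, 801 and 909 CPM in the doxycycline mice and fell by 0.45 ± 0.07 (edgeR adjusted p = 0.00132). Eif4a1, the main RNA helicase, was at 351, 313 and 299 CPM in the untreated mice and 255, 232 and 255 CPM in the doxycycline mice and fell by 0.38 ± 0.08 (edgeR adjusted p = 0.00501). For Eif4e, the cap-binding protein itself, the values were 157, 138 and 125 CPM in the untreated mice and 109, 89.2 and 109 CPM in the doxycycline mice, a fall of 0.45 ± 0.11 (edgeR adjusted p = 0.00909). Eif4b and Eif4h, cofactors of the helicase, fell by 0.49 ± 0.06 and 0.27 ± 0.06. Over the 12 tested, the treated mice lay below the untreated mice in 8, these 5 among them, and above in 3. Of all genes tested, 30.9% and 30.2% did so.

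The exception was Eif4e3, a divergent member of the cap-binding family (Entrez gene 66892, chr6:99621879-99692873). It was at 30.9, 30.8 and 28.7 CPM in the untreated mice and 56.2, 61.9 and 49.6 CPM in the doxycycline mice and rose by 0.89 ± 0.09 (edgeR adjusted p = 0.000227). Every treated mouse was above every untreated mouse, and the call was kept under all 18 alternative settings. Eif4e2 (4EHP), which binds caps without recruiting eIF4G, was at 115, 110.1 and 108 CPM in the untreated mice and 104, 100.1 and 106 CPM in the doxycycline mice (-0.10 ± 0.06, edgeR adjusted p = 0.199). The germline-type gene Eif4e1b had 0 reads in all mice, and the eIF4E transporter gene Eif4enif1 had a log2 difference of -0.08 ± 0.06.

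Per kilobase, Eif4e3 was at 22.2 ± 2.44 CPM in the doxycycline mice. Eif4e was at 48.5 ± 5.59 in untreated and 35.5 ± 3.96 in doxycycline mice. The ratio of Eif4e to Eif4e3 per kilobase was 4.43, 3.90 and 3.79 in the untreated mice and 1.69, 1.26 and 1.91 in the doxycycline mice. In the untreated mice Eif4e3 was the lowest of the cap-binding genes with reads, below Eif4e2 (22.5 ± 0.755). In the doxycycline mice Eif4e2 was at 20.9 ± 0.573, within the spread of Eif4e3. Eif4e was above Eif4e3 in each treated mouse.

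Eif4a2, the second helicase, and the scaffolds other than Eif4g1 did not pass. Eif4a2 was at 139.5, 122 and 133 CPM in the untreated mice and 191, 148 and 143 CPM in the doxycycline mice, with the treated mice above the untreated mice (0.29 ± 0.11). Its edgeR adjusted p was 0.067 with all mice, 0.0443 without doxycycline mouse 2 and 0.0388 without doxycycline mouse 3. Doxycycline mouse 1 was the highest of all 6.

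Eif4g3 was at 221, 233 and 243 CPM in the untreated mice and 257, 249 and 266 CPM in the doxycycline mice (0.15 ± 0.06, edgeR adjusted p = 0.0895, and 0.0399 without untreated mouse 3 and doxycycline mouse 2). Eif4g2 (DAP5), a scaffold that lacks the cap-binder's site, had the highest level per kilobase of the eIF4 genes (382 ± 17.9 untreated, 389 ± 19.6 with doxycycline). It was at 3111, 2940.0 and 2836 CPM in the untreated mice and 3104, 3114 and 2845 CPM in the doxycycline mice, and its log2 difference was 0.03 ± 0.07 (95% interval -0.13 to 0.19). Eif4a3, the helicase of the exon junction complex rather than of initiation, had a log2 difference of -0.18 ± 0.07 (edgeR adjusted p = 0.0666, and 0.0232 without doxycycline mouse 3).

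Paralog ratios, which do not depend on library scaling, were compared for 9 pairs. The ratio of Eif4a1 to Eif4a2 per kilobase was 4.24, 4.32 and 3.78 in the untreated mice and 2.26, 2.65 and 3.01 in the doxycycline mice. For Eif4g1 over Eif4g3 it was 6.12, 5.65 and 5.53 in the untreated mice and 3.67, 3.76 and 3.99 in the doxycycline mice. For Eif4g1 over Eif4g2 it was 0.533, 0.549 and 0.581 in the untreated mice and 0.373, 0.369 and 0.458 in the doxycycline mice. Each of these ratios was lower in every treated mouse than in any untreated mouse.

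The ratio of Eif4e to Eif4e2 was 2.15 ± 0.175 in untreated and 1.69 ± 0.149 in doxycycline mice (SD, n = 3 each). That of Eif1a to Eif1ax was 0.283, 0.248 and 0.238 in the untreated mice and 0.201, 0.194 and 0.183 in the doxycycline mice. That of Eif1 to Eif1b was 1.11, 1.05 and 1.01 in the untreated mice and 0.919, 0.739 and 0.96 in the doxycycline mice. The groups did not overlap in the ratios given so far or in that of Eif5a to Eif5a2, given below, and the exact two-sided permutation test gave p = 0.1 for each, the smallest that 3 mice against 3 allow (Benjamini-Hochberg adjusted over 9 pairs, 0.113). No ratio thus passed a threshold of 0.05. Eif4e and Eif4g1 each enter several pairs, 61.2% of single genes did not overlap either, and the share among other gene pairs was not computed. The groups overlapped for Eif3j1 over Eif3j2, with 0.32, 0.345 and 0.344 in the untreated mice and 0.336, 0.336 and 0.347 in the doxycycline mice and an exact permutation p of 0.8.

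**Figure D4:**
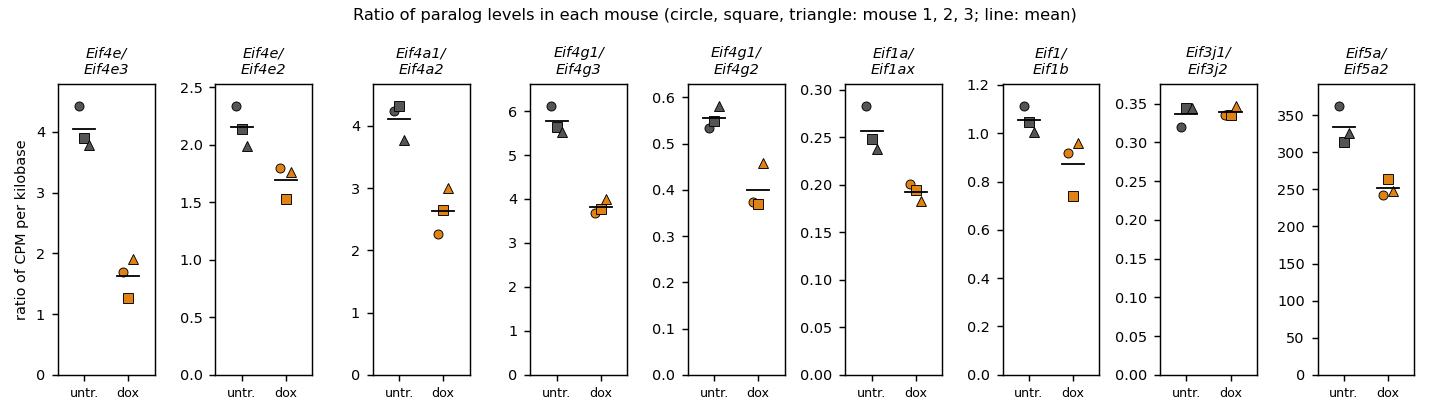
Ratio of the levels per kilobase within 9 paralog pairs in each mouse (1 panel per pair, y axes from 0, symbols for mice 1 to 3, line at the group mean). The doxycycline mice lie below the untreated mice in every panel except Eif3j1 over Eif3j2.

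Eif5a, the hypusine-bearing factor that helps the ribosome through proline stretches (Entrez gene 276770, chr11:69916712-69921958), was among the most abundant members. It was at 1813, 1686 and 1574 CPM in the untreated mice and 918, 787 and 1163 CPM in the doxycycline mice and fell by 0.82 ± 0.14 (edgeR adjusted p = 0.00216). Doxycycline mouse 3 was the highest treated mouse and still lay below every untreated mouse. Per kilobase it was at 838 ± 59.1 in untreated and 474 ± 94.6 in doxycycline mice. The summed CPM of the eIF5A and eIF6 genes in the treated mice was 58.2% of the untreated level, the lowest such share among the 9 groups of members. Most of that sum was Eif5a alone, with a mean of 1691 of 1844.5 CPM in the untreated mice.

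The paralog Eif5a2 was rare, at 12.4, 13.3 and 11.9 CPM in the untreated mice and 9.35, 7.37 and 11.6 CPM in the doxycycline mice. Its log2 difference of -0.41 ± 0.17 did not pass (edgeR adjusted p = 0.0687, and 0.0182 without doxycycline mouse 3). The ratio of Eif5a to Eif5a2 per kilobase was 363, 314 and 326 in the untreated mice and 243, 264 and 248 in the doxycycline mice. Eif6, which keeps the large subunit from joining too early, was at 142, 141 and 139.8 CPM in the untreated mice and 104, 105 and 118 CPM in the doxycycline mice and fell by 0.37 ± 0.07 (edgeR adjusted p = 0.00262).

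The last 4 members share the naming root without belonging to the complexes above, and 3 of them fell (75%, beside 25.2% of all genes). Eif2a, an alternative initiator-tRNA factor unrelated to the eIF2 subunits, was at 176, 168 and 155 CPM in the untreated mice and 126, 131 and 123 CPM in the doxycycline mice and fell by 0.39 ± 0.07 (edgeR adjusted p = 0.00199). Eif2d, a recycling factor, fell by 0.29 ± 0.06. Eif1ad fell by 0.20 ± 0.07 (edgeR adjusted p = 0.049). Its adjusted p was 0.143 with untreated mouse 1 left out, 0.156 with untreated mouse 2, 0.0913 with doxycycline mouse 1 and 0.14 with doxycycline mouse 2 left out. Eif4a3l1, a close copy of Eif4a3, did not pass (-0.16 ± 0.12).

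Genes that work beside these factors were read from lists. Of 22 genes of the cytosolic aminoacyl-tRNA synthetases and their scaffolds, which charge tRNAs, 20 fell and 0 rose (median -0.52). That is 90.9% lower, beside 25.2% of all genes, and 0% higher, beside 24.8%. Eprs, Aimp2, Tars and Rars had the smallest p-values, with falls of 0.65 ± 0.08, 0.71 ± 0.09, 0.50 ± 0.07 and 0.64 ± 0.10. Eprs was at 494, 489 and 471 CPM in the untreated mice and 305, 286 and 337 CPM in the doxycycline mice. Aars (-0.20 ± 0.10; edgeR adjusted p = 0.0228 without doxycycline mouse 3) and Qars (-0.03 ± 0.08) did not pass. With any 1 mouse left out, 18 to 21 of the list fell. Aimp1 was lost when untreated mouse 1 (0.0644) or 2 (0.0793) or doxycycline mouse 1 (0.0568) was left out, and Hars in 4 of these fits, without untreated mouse 1 or 2 or doxycycline mouse 1 or 2 (0.0515 to 0.0751).

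Of 12 genes that make hypusine and its polyamine donor or place diphthamide on eEF2, 8 fell and 0 rose (median -0.35). That is 66.7% lower, beside 25.2% of all genes, and 0% higher, beside 24.8%. With any 1 mouse left out, 6 to 9 fell. Dph5 was lost without untreated mouse 1 or 2 or doxycycline mouse 1 or 2 (edgeR adjusted p = 0.0665 to 0.0873) and Dph3 without untreated mouse 1 (0.0555), and Sms passed as lower without untreated mouse 3 (0.0232). Srm, spermidine synthase, was at 163, 141 and 156 CPM in the untreated mice and 70.9, 57.7 and 85.6 CPM in the doxycycline mice and fell by 1.10 ± 0.14 (edgeR adjusted p = 0.000669). Dohh, which completes hypusine on eIF5A, fell by 0.49 ± 0.07, and the diphthamide genes Dph1 and Dph2 by 0.59 ± 0.10 and 0.44 ± 0.08. Dhps, the first hypusine enzyme, was named after its value was seen: it had a log2 difference of 0.03 ± 0.09.

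Termination genes fell in 5 of 6 tested (83.3%, beside 25.2% of all genes) and 0 rose (beside 24.8%), with a median of -0.37. Hbs1l and Pelo, which rescue stalled ribosomes, fell by 0.39 ± 0.07 and 0.48 ± 0.10, and the release-factor genes Etf1 and Gspt1 by 0.40 ± 0.09 and 0.35 ± 0.08. The fifth was Trmt112, a methyltransferase partner (-0.27 ± 0.10), whose edgeR adjusted p of 0.0439 was 0.0621 to 0.143 with any 1 mouse other than untreated mouse 1 left out. Of 12 helicase, poly(A)-binding and recycling genes, 6 fell (50%, beside 25.2% of all genes) and 0 rose (beside 24.8%), with a median of -0.24. With any 1 mouse left out, 4 to 8 fell, the fewest without untreated mouse 2 and the most without untreated mouse 3. Dhx36 was lost without untreated mouse 1 or 2 or doxycycline mouse 2 or 3 (edgeR adjusted p = 0.0879 to 0.12) and Pabpc1 without untreated mouse 2 (0.0574) or doxycycline mouse 1 (0.0563). Without untreated mouse 3, Dhx29 (0.0363) and Paip1 (0.038) passed as lower, and Paip1 also without doxycycline mouse 1 (0.0422). Pabpc4, a poly(A)-binding protein gene, fell by 0.73 ± 0.09, Abce1, the recycling ATPase, by 0.55 ± 0.08, Denr, a tRNA-release factor, by 0.48 ± 0.07 and Abcf1 by 0.30 ± 0.07. The helicase gene Ddx3x was at 1688, 1404 and 1936 CPM in the untreated mice and 2174, 2269.8 and 1831 CPM in the doxycycline mice (0.32 ± 0.13, edgeR adjusted p = 0.07), and it passed as higher without untreated mouse 3 (0.0204) or doxycycline mouse 3 (0.0399).

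Mitochondrial translation factors, encoded in the nucleus, gave 3 lower and 1 higher of 11 (median -0.15). The release-factor gene Mtrf1 fell by 0.70 ± 0.12, the elongation factor gene Tsfm by 0.34 ± 0.09 and the initiation factor gene Mtif2 by 0.32 ± 0.09, and Mtif3, another initiation factor gene, rose by 0.41 ± 0.11. The call of Mtif3 was lost without untreated mouse 2 (edgeR adjusted p = 0.0793) or doxycycline mouse 1 (0.0527). That of Mtif2 was lost when untreated mouse 1 (0.0675), untreated mouse 2 (0.0593) or doxycycline mouse 3 (0.0527) was left out, and that of Tsfm without untreated mouse 3 and doxycycline mouse 2 together (0.0746), where Guf1 passed as lower (0.035). The share of lower genes here, 27.3%, was close to the 25.2% of all genes. The share of higher genes, 9.09%, was below their 24.8%.

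**Figure D5:**
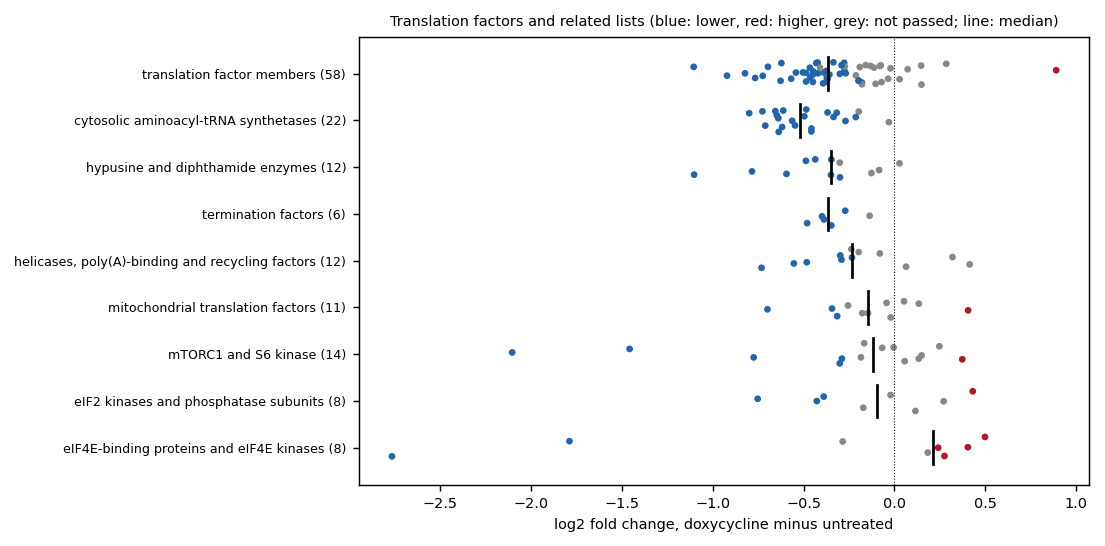
Log2 fold change (doxycycline minus untreated, x axis) of each tested gene in the translation factor set and 8 related lists, with a line at each median; blue genes fell, red genes rose and grey genes did not pass. The medians run from -0.52 for the cytosolic synthetases to 0.21 for the eIF4E-binding proteins and eIF4E kinases.

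Of 8 genes for eIF4E-binding proteins, cap-complex inhibitors and eIF4E kinases, 2 fell (25%, beside 25.2% of all genes) and 4 rose (50%, beside 24.8%), with a median of 0.21. With any 1 mouse left out, 2 to 5 rose, and no test compared this list with the factors. Eif4ebp1 (4E-BP1), which holds eIF4E away from eIF4G, was at 35.8, 34.6 and 32.3 CPM in the untreated mice and 9.64, 8.53 and 11.5 CPM in the doxycycline mice and fell by 1.79 ± 0.12 (edgeR adjusted p = 4.7e-05), more than any member of the set. Cyfip1, another eIF4E binder, was at 76.1, 73.4 and 35.6 CPM in the untreated mice and 9.94, 7.88 and 9.41 CPM in the doxycycline mice and fell by 2.77 ± 0.32 (edgeR adjusted p = 0.00112). Pdcd4, an inhibitor of the eIF4A helicase, rose by 0.50 ± 0.12 (0.29 without untreated mouse 3 and doxycycline mouse 2), and the eIF4E kinase gene Mknk1 by 0.40 ± 0.10. The other two were the kinase gene Mknk2 (0.28 ± 0.08) and Cyfip2 (0.24 ± 0.08). Without untreated mouse 1 or 2 neither passed, with edgeR adjusted p-values of 0.0728 and 0.066 for Mknk2 and 0.122 and 0.101 for Cyfip2. Mknk2 was also lost without doxycycline mouse 3 (0.0519), and Cyfip2 without doxycycline mouse 1 (0.0586) or 2 (0.067).

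Of 8 genes for eIF2 kinases and phosphatase subunits, 3 fell (37.5%, beside 25.2% of all genes) and 1 rose (12.5%, beside 24.8%), with a median of -0.10. Gcn1, an activator of the kinase GCN2, fell by 0.43 ± 0.08, Eif2ak2 (PKR) by 0.75 ± 0.15 and Eif2ak4 (GCN2) by 0.39 ± 0.10, and Eif2ak3 (PERK) rose by 0.43 ± 0.10. Without doxycycline mouse 1 the phosphatase subunit gene Ppp1r15a passed as higher (0.37, edgeR adjusted p = 0.0335) and Ppp1r15b as lower (-0.21, 0.0461), so that 2 rose and 4 fell. With all mice their values were 0.27 ± 0.12 and -0.17 ± 0.06 (edgeR adjusted p = 0.0998 and 0.0545). Of 14 mTORC1 and S6 kinase genes, 5 fell (35.7%, beside 25.2% of all genes) and 1 rose (7.14%, beside 24.8%), with a median of -0.12. Larp1, a repressor of mRNAs that begin with a pyrimidine tract, fell by 0.77 ± 0.08, the Rag GTPase gene Rragd by 2.10 ± 0.23, the mTOR inhibitor gene Deptor by 1.46 ± 0.31 and Rptor, the Raptor subunit, by 0.29 ± 0.07. Rheb, the GTPase that activates mTORC1, was the fifth (-0.30 ± 0.09), and the S6 kinase gene Rps6kb2 rose by 0.37 ± 0.10. Without untreated mouse 2 the calls of Rptor (edgeR adjusted p = 0.0547), Rheb (0.0604) and Rps6kb2 (0.0539) were lost, so that 3 fell and 0 rose. Without untreated mouse 1 those of Rheb (0.0658) and Rps6kb2 (0.0565) were lost and Mtor passed as lower (0.0353), so that 5 fell and 0 rose. Without doxycycline mouse 1 the mTORC1 inhibitor gene Akt1s1 passed as higher (0.0362).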

How the data were processed

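The authors deposited raw counts per Entrez gene, with gene lengths, for 12 libraries (3 untreated and 3 doxycycline mice, 2 runs each). The tools were CASAVA 1.8.1 and featureCounts on mm10, per the submitters' processing notes. Not given in the sources used here are the aligner, the strand setting and the handling of reads with several matches. The 2 runs were summed per mouse (29904744 to 44949303 counts). Symbols came from RefSeq (25275 of 27179 identifiers). The test was edgeR 4.0.16 in R 4.3.3, with filterByExpr (minimum count 10), TMM, robust quasi-likelihood F test, and Benjamini-Hochberg adjustment over 13134 genes at 0.05. SE is the absolute log2 fold change over the square root of F. Levels between genes are CPM per kilobase of the deposited length. The fit was also run on simulated counts in which far fewer genes changed than the 50.0% called here. Its error rate at that share was not tested. DESeq2 1.42.0, limma-voom (limma 3.58.1) and other settings were alternatives.

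Members and lists were chosen with earlier results of these data known. Values in each mouse are given for the member with the smallest p and the one with the highest level per kilobase in each complex, for members called against their complex, and for paralogs; each list names up to 4 genes of smallest p. Further genes named were chosen after their values were seen.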

Additional observations from a re-analysis of the deposited data

How the results depend on the processing

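Across 18 alternatives, 34 to 39 members fell. The number that rose was 1, except that it was 2 with the replicate number as a block (36 fell) and 2 without untreated mouse 3 and doxycycline mouse 2; leaving out each mouse in turn it ranged from 1 to 2. Same-numbered mice had correlations of 0.156, -0.0116 and -0.103, and not every mouse correlated best with its own number. With 3 mice of each group this check cannot show whether the numbers pair them. Of 39 called members, 35 were called in the same direction under all 18 alternatives; the others were Eif1ad, Eif2b4, Eif3e and Eif3k, and 0 changed sign. Of 19 members not called, 13 were called under none, and Eef2, Eif3m, Eif4a2, Eif4a3, Eif4g3 and Eif5a2 under some. Between runs of a mouse, members differed by a median of 0.0183 to 0.0332 log2 units. A count of 0 allows 0.0666 to 0.101 CPM, counting error only.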
